A study of Homo sapiens with 24 samples.

Results

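The 10 imprinted genes described here, PEG3, ZIM2, PEG10, SGCE, H19, IGF2, MEST, MEG3, NDN and SNRPN, were taken by name from the 28277 genes that both count tables list, and all 10 were found in both. They were chosen by their counts in these same libraries (genes that differed between the lines), so their differences between the lines are given below as a description without a test. The data are polyA-enriched RNA-seq counts from 2 ovarian carcinoma lines of the high-grade serous type and of one origin, PEO1, established before chemotherapy resistance, and PEO4, established after it. In pair A, PEO1 A was the unmodified line, which lacks functional BRCA2, and PEO4 A carried functional BRCA2. In pair B, PEO1 B had regained BRCA2, by a spontaneous reversion as the study describes it, so that PEO1 B and PEO4 B both carried it. Pair A was sequenced untreated. Pair B was sequenced untreated and after 5 µM PDS (pyridostatin, a small molecule that binds G-quadruplexes, 4-stranded structures of guanine-rich DNA) for 2 h or 6 h. Each of the 8 conditions had 3 biological replicates of a single line, which gives 24 libraries, and the p-values measure the spread between these replicates. Whether a difference belongs to resistance or to these particular lines cannot be told apart with 1 line of each kind.

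Genomic imprinting silences the copy of a gene inherited from one parent, by DNA methylation laid down in the germline and kept in somatic cells, so that only the other copy is transcribed. Imprinted genes lie in clusters that share a control region, and many of them act on growth, placental function, metabolism and neural development. PEG3, PEG10, IGF2, MEST, NDN, SNRPN and SGCE are expressed from the paternal copy, and H19 and MEG3, both long non-coding RNAs, from the maternal copy. Loss of PEG3 expression and of DIRAS3, another imprinted gene, is known in ovarian cancer. The counts carry no information on the parental copy, so the imprint itself was not measured, and fewer expressing cells cannot be told apart from less RNA per cell.

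In the RefSeq annotation of GRCh38, PEG3 (chr19:56810082-56840726, minus strand) and ZIM2 (chr19:56774547-56840726, minus strand) begin at the same coordinate, and 41.2% of the exon bases of ZIM2 are shared with PEG3 in GENCODE. PEG10 (chr7:94656325-94669695) and SGCE (chr7:94584980-94656133, minus strand) are transcribed away from each other from neighbouring starts. H19 (chr11:1995176-2001266) and IGF2 (chr11:2129117-2149566) belong to one cluster, NDN (chr15:23685400-23687305) and SNRPN (chr15:24823637-24978723) to the Prader-Willi cluster. MEST (chr7:130486175-130506465) and MEG3 (chr14:100826108-100861026) each lie in a cluster of their own. RefSeq windows upstream of a start were at hand for MEST, H19, MEG3, NDN and SNRPN, 14 windows in all, and are not shown for PEG3, ZIM2, PEG10, SGCE and IGF2. Because PDS binds G-quadruplexes, 250 bases are printed for NDN, for 1 of the 5 MEST windows and for the start that SNRPN shares with SNURF, to show how the runs of G and C lie in windows with and without the G-quadruplex pattern. They were picked with the PDS values known, so nothing on the response is read from them. Capitals mark runs of GGG or CCC, and each sequence reads 5′ to 3′ on the strand of its gene.
NDN, chr15:23687306-23687555, minus strand: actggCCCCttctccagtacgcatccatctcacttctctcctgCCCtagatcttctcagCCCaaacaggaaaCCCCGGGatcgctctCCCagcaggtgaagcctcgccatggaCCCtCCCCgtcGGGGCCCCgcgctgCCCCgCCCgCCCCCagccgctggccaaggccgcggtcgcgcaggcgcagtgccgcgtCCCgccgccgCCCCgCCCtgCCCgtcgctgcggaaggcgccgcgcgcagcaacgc
MEST, chr7:130491808-130492057, plus strand: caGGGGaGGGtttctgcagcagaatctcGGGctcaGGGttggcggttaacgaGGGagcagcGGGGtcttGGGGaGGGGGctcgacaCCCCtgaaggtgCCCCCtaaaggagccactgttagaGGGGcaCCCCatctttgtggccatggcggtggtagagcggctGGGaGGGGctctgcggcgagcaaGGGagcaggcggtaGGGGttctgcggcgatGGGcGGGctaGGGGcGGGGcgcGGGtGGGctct
SNRPN, chr15:24954737-24954986, plus strand: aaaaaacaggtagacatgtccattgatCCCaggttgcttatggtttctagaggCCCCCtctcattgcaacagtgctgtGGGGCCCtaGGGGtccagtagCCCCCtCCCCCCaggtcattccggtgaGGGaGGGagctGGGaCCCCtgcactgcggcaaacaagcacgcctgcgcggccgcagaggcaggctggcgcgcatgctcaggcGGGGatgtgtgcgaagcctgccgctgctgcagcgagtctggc
The NDN window ends at the start of its gene and holds 15 CCC runs and 2 GGG runs. The MEST window, with 19 GGG and 3 CCC runs, and the SNRPN window, with 6 GGG and 7 CCC runs, lie inside the annotated span of their genes, upstream of internal starts. The pattern searched was 4 runs of GGG separated by loops of 1 to 7 bases, on either strand. It was found in 3 of the 14 windows, in NDN on the strand opposite to the gene and in 2 overlapping MEST windows on the strand of the gene, against 23.3% of all 35116 RefSeq windows of 250 bases. The other 3 MEST windows and all 4 SNRPN windows did not hold it. A match describes the letters only.

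Library totals ranged from 32528913 to 63882077 counts in pair A. In pair B they ranged from 18699929 to 22375644 in the untreated libraries and from 33260167 to 43713947 in the PDS libraries, so every treated library was deeper. Ribosomal RNA genes took 0.217% to 0.474% of the counts in untreated pair B libraries and 0.0163% to 0.0369% after PDS, a difference that moved with the treatment and whose part in the results was not tested. All 8 ovarian carcinoma markers (among them PAX8, WT1 and MUC16) reached 1 CPM (the count scaled to library size by TMM) in every condition, while PTPRC and CD3E, markers of leukocytes, had at most 3 counts in every library. CD68, a lysosomal protein gene used as a macrophage marker and also expressed in other cells, lay between 22.8 and 78.2 CPM in every library. It was at 32.2 to 54.5 CPM in untreated PEO4 B and 68.0 to 77.9 CPM there after 6 h of PDS (log2 fold change 0.77, adjusted p = 2.92e-05 by edgeR's quasi-likelihood test), and its part in the results was not tested. After a filter on low counts, 7 of the 10 genes could be fitted in pair A and 8 in pair B. H19 and MEG3 passed in neither, and ZIM2 not in pair A.

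Overlapping genes were counted differently in the tables of pair A and pair B, and this bears on SNRPN, IGF2 and ZIM2. SNRPN encodes SmN, a protein of the splicing machinery, and SNURF is the small open reading frame upstream on the same transcript. In the 18 libraries of pair B, SNRPN had 1084 to 4548 counts and SNURF 1082 to 4536, with a difference of at most 15 counts in any library. In pair A, SNRPN had 5 to 28 counts and SNURF 0 to 1. IGF2 and its read-through partner INS-IGF2 had equal counts in 17 of 18 pair B libraries, whereas INS-IGF2 had 0 counts in all 6 libraries of pair A. Over the whole tables, 101 overlapping gene pairs had counts within 5% of each other in every pair B library, and none of these did so in every pair A library. The levels of these genes were therefore compared only within a pair, and SNRPN could not be told apart from SNURF in pair B.

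**Figure D1:**
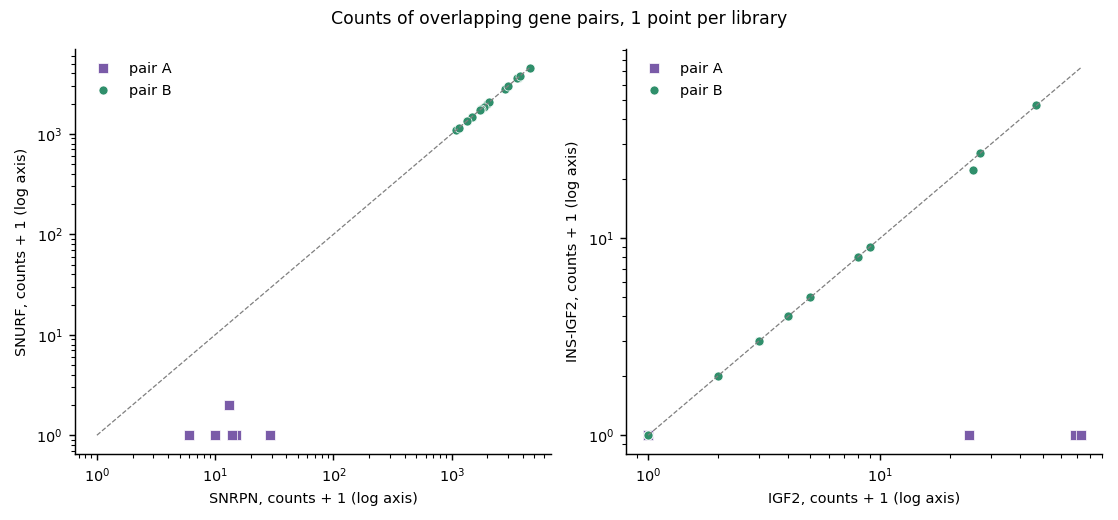
Counts plus 1 of SNRPN against SNURF and of IGF2 against INS-IGF2, on log axes, with 1 point per library and a dashed line of equality. Pair B libraries (circles) lie on the line, while pair A libraries with counts for SNRPN or IGF2 (squares) lie at 0 to 1 counts of the partner, and the 3 PEO1 A libraries without IGF2 counts share the corner of its panel.

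Among the 10 genes, the widest difference between the lines was at PEG3, which encodes a zinc finger protein that acts in growth control and apoptosis. PEO1 A had 542, 429 and 610 PEG3 counts in its 3 libraries, and PEO4 A had 0 in each. Untreated PEO1 B had 616, 651 and 618 counts, and untreated PEO4 B again had 0 in each. PEG3 RNA was thus detected in every PEO1 library and in none of the untreated PEO4 libraries. Relative to 3 counts per library, the limit that a count of 0 allows, PEG3 was at least 153.5-fold higher in PEO1 A than in PEO4 A and at least 199.5-fold higher in untreated PEO1 B than in PEO4 B. These limits cover counting error only. The mean level was 11.4 ± 0.0687 CPM (SD, n = 3) in PEO1 A and 27.9 ± 1.45 CPM in untreated PEO1 B, levels set from tables that were counted differently. After PDS the 6 PEO4 B libraries held 1 PEG3 count in all, found at 2 h, against 726, 889 and 854 counts in PEO1 B at 2 h and 729, 719 and 825 at 6 h.

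ZIM2, a zinc finger gene that uses the first exons of PEG3, had the same restriction in pair B. It had 69, 82 and 82 counts in untreated PEO1 B, 57 to 108 counts in the PDS libraries of PEO1 B and 0 in all 9 PEO4 B libraries, so that untreated PEO1 B was at least 24.6-fold higher. In pair A it had 0 counts in all 6 libraries, including those of PEO1 A, where PEG3 was read. The ZIM2 counts of PEO1 B amounted to 7.82% to 13.3% of the PEG3 counts of the same library. PEG3-AS1, the antisense RNA inside PEG3, had 95 to 131 counts in the PEO1 B libraries and 0 in every PEO4 B library and in all of pair A. Whether these reads came from ZIM2 or PEG3-AS1 transcripts or from PEG3 cannot be told apart without the strand and overlap settings of the counting, which are not given in the sources used here.

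NDN, which encodes necdin, a MAGE family protein that holds back cell growth, was the other gene lower in PEO4. Its counts were 3068, 2346 and 3400 in PEO1 A and 66, 80 and 42 in PEO4 A, or 63.6 ± 0.831 against 1.52 ± 0.659 CPM. In pair B they were 1116, 1338 and 1296 in untreated PEO1 B and 84, 70 and 68 in untreated PEO4 B, or 55.2 ± 1.71 against 3.43 ± 0.263 CPM. The groups did not overlap in either pair, and the log2 differences were -5.44 (SE 0.216) and -4.01 (SE 0.0968). Unlike PEG3, NDN kept a readable level in every PEO4 library.

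IGF2, a fetal growth factor that signals through IGF1R, was low and went the other way. PEO1 A had 0 counts in each library and PEO4 A 23, 68 and 72, which makes PEO4 A at least 22.5-fold higher. The PEO4 A library with 23 counts was the deepest of the pair and stood at 0.354 CPM, against 1.93 and 2.20 CPM in the others. Untreated PEO1 B had 1, 0 and 4 counts and untreated PEO4 B 24, 26 and 46, a depth-scaled ratio of 20.1 with a 95% counting interval of 8.33 to 63.4 (exact, from summed counts). The groups did not overlap in either pair, at a level of 1.50 ± 0.998 CPM in PEO4 A and 1.49 ± 0.563 CPM in untreated PEO4 B. Of 5 fibroblast markers, COL3A1 also stood out in untreated PEO4 B, with 124 to 164 counts against 0 in every PEO1 B library, and the summed level of the list was 6.28 to 8.52 CPM there against 0.220 to 0.479 CPM in untreated PEO1 B. LUM had 1 to 8 counts and DCN 0 to 5 in the untreated PEO4 B libraries, against 0 and at most 1 in untreated PEO1 B, and PDGFRA had at most 2 and at most 3 counts. Endothelial markers were also higher there, at 1.31 to 2.72 CPM summed over PECAM1, CDH5 and VWF against 0.288 to 0.785 CPM in untreated PEO1 B, with PECAM1 (log2 difference 2.48, adjusted p = 0.000924) and VWF (1.73, adjusted p = 0.00778) called. In pair A the fibroblast list summed to 0.245 to 0.431 CPM in PEO4 A and 3.57 to 4.14 CPM in PEO1 A. There 1 of the 5 markers reached 1 CPM in PEO1 A, and PDGFRB was lower in PEO4 A (log2 difference -4.93). COL1A2, a collagen gene outside the list, was higher in PEO4 A (3.93), as was IGF2. The part of the fibroblast and endothelial markers in the IGF2 difference was not tested in either pair.

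MEST, an enzyme of the alpha/beta hydrolase fold known for its role in growth and fat storage, had the highest level of the 10 genes in every condition and was higher in PEO4 in both pairs. It had 28972, 25117 and 35464 counts in PEO1 A and 138801, 68423 and 62361 in PEO4 A, or 648 ± 36.1 against 1996 ± 125 CPM. Untreated PEO1 B stood at 364 ± 16.0 CPM and untreated PEO4 B at 803 ± 43.4 CPM. The groups did not overlap in either pair, with log2 differences of 1.62 (SE 0.0890) and 1.14 (SE 0.0571).

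PEG10 and SGCE were expressed in both lines, and their line difference depended on the pair. PEG10 derives from a retrotransposon and encodes Gag-like proteins that are essential in the placenta, and SGCE encodes epsilon-sarcoglycan, a membrane protein whose loss from the paternal copy causes myoclonus-dystonia. PEG10 stood at 451, 559 and 513 CPM in PEO1 A and 443, 447 and 439 CPM in PEO4 A, with a log2 difference of -0.20 (SE 0.0872). In pair B it stood at 148, 137 and 149 CPM in untreated PEO1 B and at 234, 311 and 195 CPM in untreated PEO4 B, a log2 difference of 0.77 (SE 0.116). The PEO4 B replicates were more spread than any other group of this gene, yet each was above every PEO1 B library. SGCE overlapped between the lines in pair A (61.5 to 63.5 CPM against 60.9 to 75.1 CPM) and was separate in pair B, with 19.4, 17.6 and 16.2 CPM in untreated PEO1 B against 39.8, 37.2 and 44.7 CPM in untreated PEO4 B (log2 difference 1.20, SE 0.0758). SNRPN differed less, at 52.4 ± 2.56 CPM in untreated PEO1 B and 70.1 ± 7.24 CPM in untreated PEO4 B (log2 difference 0.42, SE 0.0817), and its 5 to 28 counts in pair A overlapped between the lines.

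H19 and MEG3 were not detectable at a useful level. H19, which is among the most abundant RNAs of fetal tissue, had 1 count in the 24 libraries together, in untreated PEO4 B. MEG3 had at most 4 counts in pair A and at most 5 in pair B, the latter in PEO1 B after 6 h, and 0 in PEO4 A and in both PDS groups of PEO4 B. No fold is given for either.

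**Figure D2:**
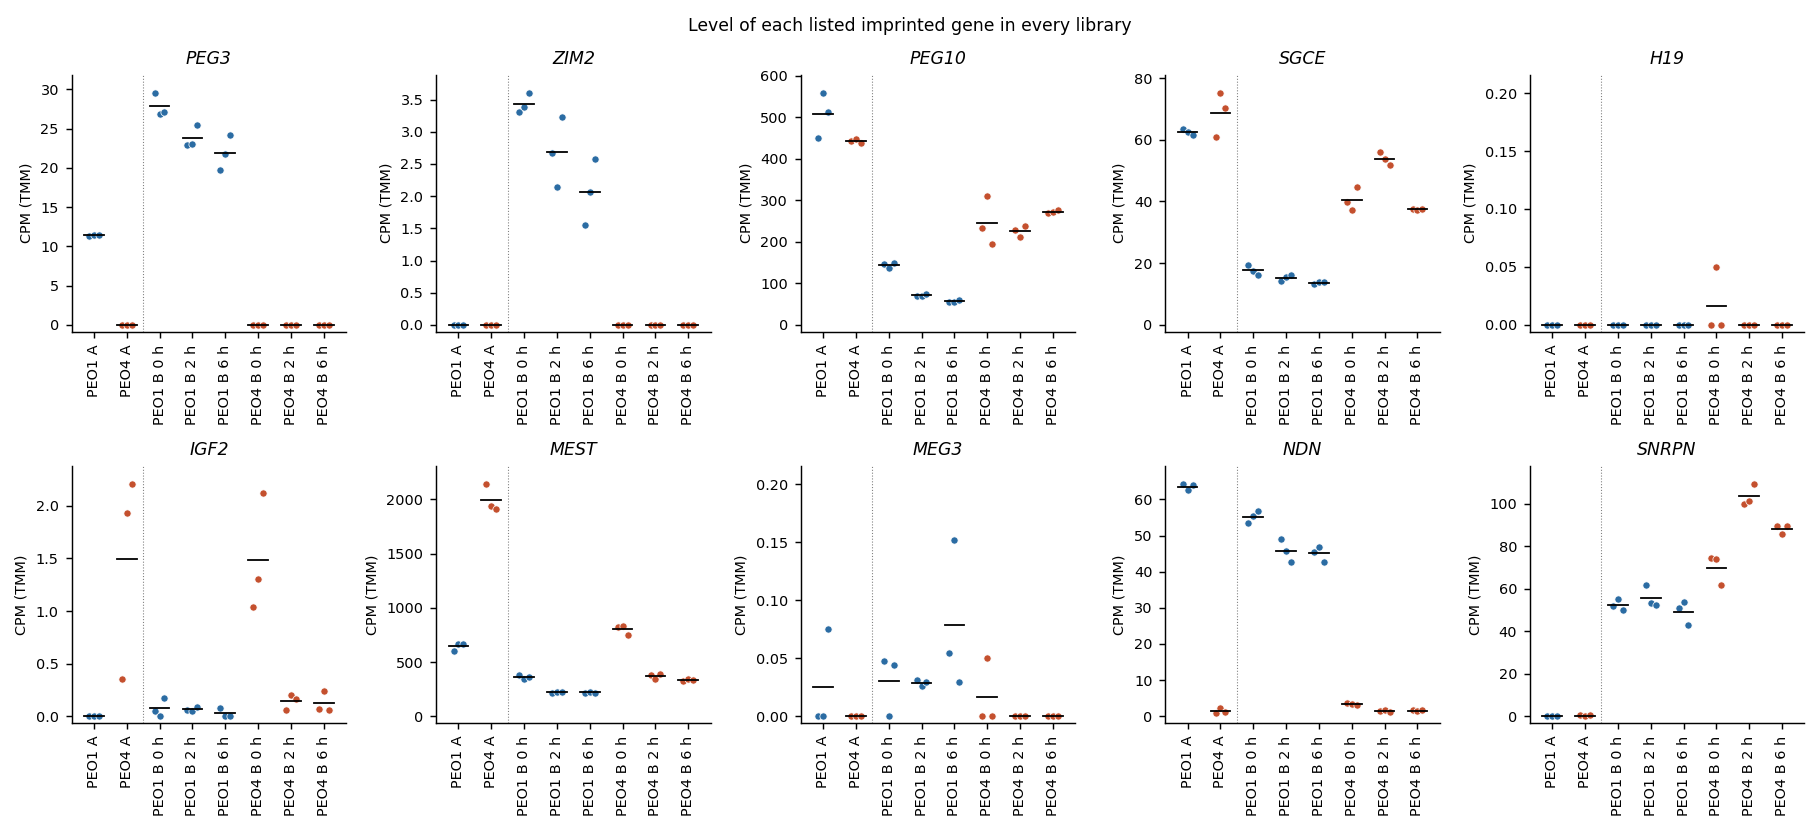
Level of each of the 10 genes in CPM (TMM) on a linear axis for every library of the 8 conditions, with points for libraries, bars for group means, PEO1 in blue, PEO4 in red and a dotted line between pair A and pair B, which were counted separately. PEG3 and NDN are high in PEO1, IGF2 and MEST in untreated PEO4, ZIM2 is read in PEO1 B only, and H19 and MEG3 stay below 0.2 CPM.

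Across all genes, absence from one line at this level was uncommon: 0.554% of 15882 genes in pair A and 0.564% of 17020 in pair B had at most 3 counts in every untreated PEO4 library and a PEO1 mean of at least 1 CPM. PEG3 met this in both pairs and ZIM2 in pair B. In the other direction, 0.227% of the genes in pair A met it, IGF2 among them, and 0.482% in pair B. Groups without overlap were common, at 67.9% of genes in pair A and 68.5% in untreated pair B, and 5 of 7 listed genes in pair A and 8 of 8 in pair B were of this kind. As the genes were chosen for such differences, nothing is read from these shares.

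Compared per exon length, the order of the genes differed between the lines. In untreated PEO1 B, MEST came first at 76.3 ± 3.36 RPKM (CPM divided by the exon length in kb), followed by NDN at 29.0 ± 0.898, PEG10 at 21.6 ± 0.977, SNRPN at 15.4 ± 0.750 and PEG3 at 2.85 ± 0.149. In untreated PEO4 B, MEST came first at 168 ± 9.10 RPKM, followed by PEG10 at 36.9 ± 8.83, SNRPN at 20.6 ± 2.13, SGCE at 1.94 ± 0.183, NDN at 1.80 ± 0.138 and IGF2 at 0.208 ± 0.0787. SGCE and NDN overlapped in untreated PEO4 B (1.78 to 2.14 against 1.64 to 1.91 RPKM), while in PEO1 B NDN was far above SGCE, which stood at 0.848 ± 0.0759 RPKM. The lengths are the exon bases of each gene in GENCODE release 44, 20876 for SGCE and 1906 for NDN. The order of the genes depends on this choice of length, and in CPM SGCE lay above NDN in untreated PEO4 B. The release may also not be the annotation the counts were made with.

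The genes whose levels over the 18 pair B libraries were most like those of PEG3 were XYLT1, EPB41L3, PEG3-AS1, CHST8 and COL22A1, with Pearson correlations of 0.999, 0.999, 0.999, 0.998 and 0.998 on log2 CPM. Each had 0 counts in every PEO4 B library and 1.39 to 27.2 CPM on average in untreated PEO1 B, so the correlation reflects the shared absence from 1 line, and 155 genes had a value above 0.98. It is a description over libraries that share their line and depth. XYLT1 (xylosyltransferase 1, which starts proteoglycan chains), EPB41L3 (a membrane skeleton protein) and CHST8 (a sulfotransferase) also had 0 counts in all 3 PEO4 A libraries.

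Within 500 kb of PEG3, 15 neighbours were tested in pair A, of which 2 were called higher and 0 lower in PEO4 A, where called means a Benjamini-Hochberg adjusted p under 0.05 by edgeR's quasi-likelihood test and an absolute log2 fold change over 1 (10 of the 15 had an adjusted p under 0.05). In untreated pair B, 1 of 18 neighbours was called higher and 2 lower, and 10 had an adjusted p under 0.05. The lower ones, named after their values were seen, were PEG3-AS1 and the zinc finger gene ZNF835 (log2 difference -3.11, adjusted p = 4.51e-12), which was not called in pair A (-0.42, adjusted p = 0.19). ZNF582-AS1 was the neighbour called in both pairs in the same direction, higher in PEO4 by a log2 of 1.50 and 1.40. The shares called over all genes were 25.8% in pair A and 24.8% in untreated pair B, and those with an adjusted p under 0.05 alone 61.6% and 68.6%.

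Neighbours that differed in the same direction in both pairs were found around other listed genes. Near MEST, CPA4, a carboxypeptidase gene that is itself imprinted, was higher in PEO4 by a log2 of 2.87 (SE 0.135) in pair A and 1.53 (SE 0.0990) in pair B. COPG2IT1, an RNA of the same cluster, was higher by 3.39 and 1.17, and CPA5 was lower, at -2.74 and -1.57. Near PEG10 and SGCE, COL1A2, a collagen gene, was higher by 3.93 and 6.68, with 1 to 2 counts in untreated PEO1 B and 39 to 344 in untreated PEO4 B. Near IGF2 and H19, TH (tyrosine hydroxylase) was higher by 2.94 and 2.29, and near MEG3, BEGAIN was lower, at -1.05 and -2.13. The adjusted p of these neighbours was at most 0.00476 in pair A and 0.00277 in pair B by edgeR's quasi-likelihood test. No neighbour of NDN or SNRPN met this rule. MAGEL2, near NDN, was called lower in PEO4 A (adjusted p = 1.11e-06 by the same test) but did not pass the low-count filter in pair B.

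**Figure D3:**
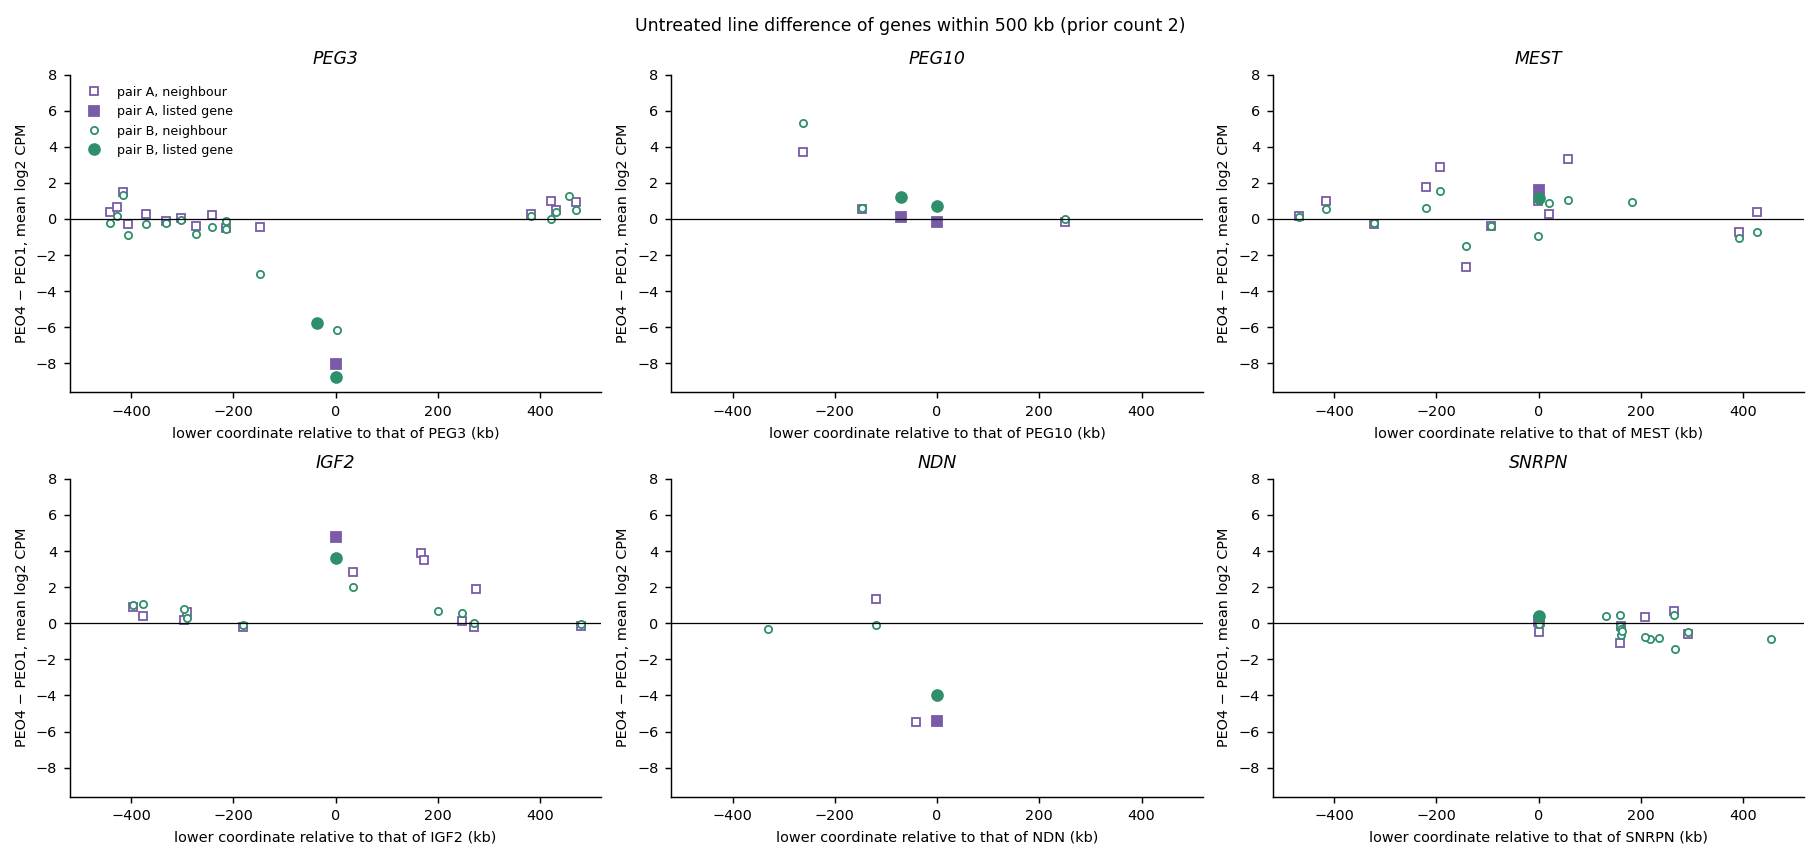
Untreated difference between PEO4 and PEO1 in mean log2 CPM (prior count 2) of the genes within 500 kb of 6 listed genes that passed the low-count filter, against the distance in kb of their lower coordinates, with pair A as squares, pair B as circles and listed genes filled. Around PEG3 the lowest values are those of PEG3, ZIM2 and PEG3-AS1, ZNF835 follows in pair B alone, and most flanking genes lie within 2 of 0.

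After PDS, different genes of the list were called in the 2 lines of pair B. In PEO1 B, PEG10 was the 1 gene of the 8 tested that was called, and it fell. In PEO4 B, IGF2, MEST and NDN fell, and PEG10 was not called. PEG3 and ZIM2 stayed readable in PEO1 B throughout, and in PEO4 B neither was read beyond 1 PEG3 count at 2 h. These responses were tested over all 17020 genes of pair B with edgeR's quasi-likelihood test, in which 7.57% were called in PEO1 B at 2 h, 6.39% lower, and 8.13% at 6 h, 6.83% lower. In PEO4 B 17.4% were called at 2 h, 11.0% lower, and 22.6% at 6 h, 16.3% lower. Of the 8 genes, 1 was called in PEO1 B and 3 in PEO4 B, at both times. Among the 3 was IGF2, which passed the low-count filter only through untreated PEO4 B. At an adjusted p under 0.05 alone they were 5 and 6 in PEO1 B, beside 52.6% and 53.0% of all genes, and 5 and 4 in PEO4 B, beside 65.3% and 69.8%. Their median log2 fold change was -0.249 and -0.554 in PEO1 B at 2 h and 6 h, beside -0.025 and -0.027 over all genes. In PEO4 B, where PEG3 and ZIM2 had next to no counts, it was -0.063 and -0.057, beside 0.0 and -0.028.

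PEG10 stood at 148, 137 and 149 CPM in untreated PEO1 B, at 70.1, 68.9 and 75.7 CPM after 2 h of PDS and at 54.5, 54.1 and 61.2 CPM after 6 h. Each treated library was below every untreated one, and the 6 h libraries were below those of 2 h. The log2 fold change was -1.02 (SE 0.118, adjusted p = 2.51e-06) at 2 h, just past the fold threshold, and -1.35 (SE 0.120, adjusted p = 1.06e-07) at 6 h. The 2 h call was lost, at -0.98 to -0.99, when untreated replicate 1 or 3 or PDS 2 h replicate 1 or 2 of PEO1 B was left out, and at -0.9991 without the low-count filter. In PEO4 B the gene stood at 234, 311 and 195 CPM untreated, 229, 211 and 238 CPM at 2 h and 269, 271 and 277 CPM at 6 h. These groups overlapped, with log2 fold changes of -0.13 (adjusted p = 0.349) and 0.14 (adjusted p = 0.281).

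IGF2 fell in PEO4 B from 24, 26 and 46 counts untreated to 2, 7 and 7 at 2 h and 3, 8 and 2 at 6 h, in libraries that were deeper. The level went from 1.49 ± 0.563 to 0.141 ± 0.0752 and 0.125 ± 0.103 CPM, and no treated library reached an untreated one. In pair B, IGF2 passed the low-count filter only through untreated PEO4 B, and it was listed for differing between the lines. A fall from that group was thus favoured in advance, and the p-values are no independent support for it. The log2 fold change was -3.36 (SE 0.500, adjusted p = 2.34e-06) at 2 h and -3.58 (SE 0.520, adjusted p = 1.27e-06) at 6 h. Beside it, the summed level of the fibroblast markers went from 6.28 to 8.52 CPM in untreated PEO4 B to 1.13 to 1.56 CPM at 2 h and 0.580 to 0.988 CPM at 6 h, with COL3A1 at 124 to 164, 32 to 40 and 14 to 29 counts and LUM and DCN at most 1 count in any treated library, and the summed level of 3 endothelial markers (PECAM1, CDH5 and VWF) went from 1.31 to 2.72 CPM to 0.408 to 0.764 and 0.061 to 0.191 CPM. Their part in the fall of IGF2 was not tested. PEO1 B had 0 to 4 IGF2 counts in every library, too few for a response to be detectable.

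MEST fell in PEO4 B from 823, 833 and 753 CPM to 383, 347 and 385 CPM at 2 h and 323, 345 and 338 CPM at 6 h, with log2 fold changes of -1.11 (SE 0.0569, adjusted p = 2.43e-14) and -1.26 (SE 0.0571, adjusted p = 2.13e-15). In PEO1 B it went from 379, 347 and 365 CPM to 213, 224 and 227 CPM and 216, 224 and 218 CPM. Treated libraries lay below untreated ones in both lines. The change in PEO1 B, -0.72 (adjusted p = 3.2e-10) and -0.73 (adjusted p = 2.02e-10), did not pass the fold threshold.

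NDN fell in PEO4 B from 3.64, 3.52 and 3.13 CPM to 1.36, 1.67 and 1.18 CPM at 2 h and 1.60, 1.31 and 1.68 CPM at 6 h, on 43 to 84 counts per library. The log2 fold change was -1.30 (SE 0.140, adjusted p = 1.43e-08) and -1.16 (SE 0.138, adjusted p = 5.73e-08). In PEO1 B, where NDN was far higher, it went from 55.2 ± 1.71 to 45.8 ± 3.19 and 45.1 ± 2.08 CPM, log2 fold changes of -0.27 (adjusted p = 0.00251) and -0.29 (adjusted p = 0.0012) that lay under the fold threshold.

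PEG3 in PEO1 B went from 29.5, 26.9 and 27.1 CPM to 22.9, 23.0 and 25.5 CPM at 2 h and 19.8, 21.8 and 24.2 CPM at 6 h. The treated libraries all lay below the untreated ones, but the log2 fold changes of -0.23 (adjusted p = 0.0429) and -0.34 (adjusted p = 0.0035) did not reach 1. ZIM2 had log2 fold changes of -0.36 (adjusted p = 0.172) and -0.74 (adjusted p = 0.00864). Library totals in place of TMM lower all PDS fold changes by about the same amount, with a shift of the median gene of -0.15 in PEO1 B at both times and of -0.13 and -0.16 in PEO4 B at 2 h and 6 h, which is of the order of these small values.

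SGCE and SNRPN were higher at 2 h in PEO4 B without passing the fold threshold. SGCE went from 40.6 ± 3.81 to 53.9 ± 2.08 CPM (log2 fold change 0.41, adjusted p = 1.42e-05) and was back at 37.5 ± 0.136 CPM at 6 h, with all 3 libraries of 6 h below those of 2 h (log2 difference -0.52, adjusted p = 4.69e-07). SNRPN, together with SNURF, stood at 70.1 ± 7.24, 104 ± 4.93 and 88.4 ± 2.21 CPM, with log2 fold changes of 0.56 (adjusted p = 1.16e-06) and 0.34 (adjusted p = 0.000611). In PEO1 B, the log2 fold changes of SGCE were -0.21 (adjusted p = 0.0244) and -0.38 (adjusted p = 0.000251), and those of SNRPN 0.09 (adjusted p = 0.35) and -0.09 (adjusted p = 0.365). Between 2 h and 6 h none of the 8 genes was called in either line, at 0.17% of all genes in PEO1 B and 12.0% in PEO4 B, by edgeR's quasi-likelihood test. At an adjusted p under 0.05 alone, 0 were counted in PEO1 B and 3 in PEO4 B, beside 6.94% and 60.1% of all genes, and DESeq2 also called 0. At an unadjusted p under 0.05 these were PEG10, SGCE and SNRPN in PEO1 B and PEG10, SGCE, MEST and SNRPN in PEO4 B.

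**Figure D4:**
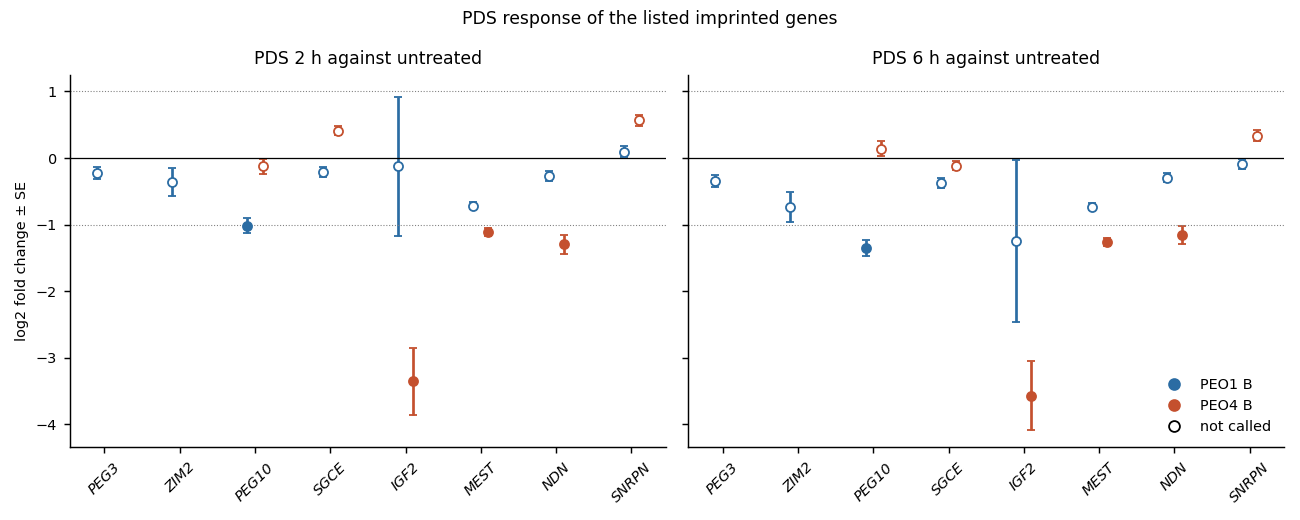
Log2 fold change after PDS against untreated cells with its SE for the 8 tested genes at 2 h and 6 h, with PEO1 B in blue, PEO4 B in red, filled points for called genes and dotted lines at the fold threshold of 1. PEG3 and ZIM2 are not drawn for PEO4 B, where they had at most 1 count, and PEG10 is called in PEO1 B alone while IGF2, MEST and NDN are called in PEO4 B alone.

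The difference between the lines in their response was tested as an interaction, which shares its untreated libraries with the comparisons above. PEG10 differed by 1.50 on the log2 scale at 6 h (SE 0.165, adjusted p = 2.07e-06), lower in PEO1 B after PDS and not in PEO4 B, and by 0.89 (SE 0.164, adjusted p = 0.00047) at 2 h. NDN differed by -1.03 (SE 0.157, adjusted p = 1.24e-05) at 2 h, with the larger fall in PEO4 B, and by -0.86 (SE 0.156, adjusted p = 6.57e-05) at 6 h, which lay under the fold threshold. IGF2 differed by -3.23 (SE 1.23, adjusted p = 0.0414) at 2 h and -2.33 (SE 1.63, adjusted p = 0.252) at 6 h, on at most 4 counts per PEO1 B library. The 2 h call of IGF2 was lost without any 1 of 7 libraries (untreated replicates 1 and 2 and each 2 h replicate of PEO1 B, untreated replicate 3 and 2 h replicate 1 of PEO4 B), with adjusted p between 0.0629 and 0.127, and that of NDN without 2 h replicate 1 of PEO1 B or untreated replicate 1 or 2 h replicate 3 of PEO4 B, at -0.91 to -0.99. Over all genes, 11.0% were called in the interaction at 2 h and 14.8% at 6 h, beside 2 and 1 of the 8 genes. At an adjusted p under 0.05 alone these were 37.3% and 47.4%, beside 6 and 5 of the 8.

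PEG10 and SGCE did not keep their ratio. Counts of PEG10 were 7.63 to 9.21 times those of SGCE in untreated PEO1 B, 4.45 to 4.92 times at 2 h and 3.93 to 4.43 times at 6 h. In PEO4 B the ratio was 4.36 to 8.37 untreated, 3.93 to 4.58 at 2 h and 7.16 to 7.35 at 6 h. These ratios were not tested.

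Several non-coding RNAs downstream of SNRPN fell in PEO1 B, and some of them fell in PEO4 B at 2 h as well. These RNAs, hosted by the long transcript SNHG14, include small nucleolar RNAs whose loss is tied to Prader-Willi syndrome. Of 14 tested neighbours of SNRPN, 8 were called lower and 0 higher in PEO1 B after 6 h of PDS, and 2 lower in PEO4 B, beside 6.83% and 16.3% of all genes called lower, and 6 were called higher in the interaction at 6 h, beside 5.42%. The median log2 fold change of the 14 was -1.23 in PEO1 B and 0.126 in PEO4 B, beside -0.027 and -0.028 over all genes. Among those that fell in PEO1 B, named after their values were seen, were SNORD108 (-2.66), PWAR5 (-1.44), SNORD116-4 (-1.43) and PWAR6 (-1.18). In PEO4 B the same RNAs, in this order, stood at -1.90, -0.77, -0.86 and -0.05 at 2 h. At 6 h they stood at -1.19, 0.17, -0.40 and 0.61 there. SNORD108 was called lower in PEO4 B at both times. SNHG14 itself went from 115, 112 and 113 CPM to 81.25, 82.6 and 80.2 CPM in PEO1 B at 6 h, and from 114, 118 and 97.6 CPM to 139, 132 and 138 CPM in PEO4 B, and was not called in either. IPW, an RNA of the same unit, had 11.8 to 15.3 CPM in untreated PEO1 B and 7.68 to 8.51 CPM at 6 h. The small RNAs lie within SNHG14 and some have near-identical copies, so that their counts are uncertain, and polyA selection is not made to capture them. The share of ribosomal RNA genes was also lower after PDS, at 0.0163% to 0.0369% against 0.217% to 0.474% in untreated pair B libraries. Its part in these falls was not tested.

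Beyond the 10 genes, 54 other imprinted genes were looked up from a list written with earlier results of these data known. In pair A, 30 were tested, of which 7 were called higher and 3 lower in PEO4 A, beside 12.6% and 13.1% of all genes. In untreated pair B, 29 were tested, of which 5 were called higher and 4 lower, beside 12.2% and 12.6%. The medians were 0.194 and 0.017 on the log2 scale, beside -0.006 and -0.001 over all genes. Of these, 4 genes were called in both pairs and all 4 in the same direction, CPA4 and DDC higher and DIRAS3 and ATP10A lower in PEO4.

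DIRAS3, a small GTPase that restrains growth and is known to be lost in ovarian cancer, was lower by a log2 of -5.56 (SE 0.294, adjusted p = 1.23e-06) in pair A and -4.27 (SE 0.163, adjusted p = 2.36e-16) in pair B. It stood at 68.4 ± 10.6 CPM in PEO1 A against 1.53 ± 0.705 CPM in PEO4 A, and at 31.6 ± 2.02 against 1.66 ± 0.783 CPM in untreated pair B. ATP10A, a phospholipid flippase of the chromosome 15 cluster, was lower by -3.33 and -1.87. DDC, which makes dopamine and serotonin and is imprinted with GRB10, was higher by 4.92 and 3.17, at 4.40 and 1.34 CPM in PEO4. MAGEL2, the neighbour of NDN in the Prader-Willi cluster and of the same MAGE family, had 72 to 100 counts in PEO1 A and 0 in PEO4 A, and in pair B 3 to 6 counts in untreated PEO1 B and 0 in all 9 PEO4 B libraries. These genes therefore included ones absent or low in PEO4, like PEG3 and NDN, and ones higher in it, like IGF2 and MEST.

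**Figure D5:**
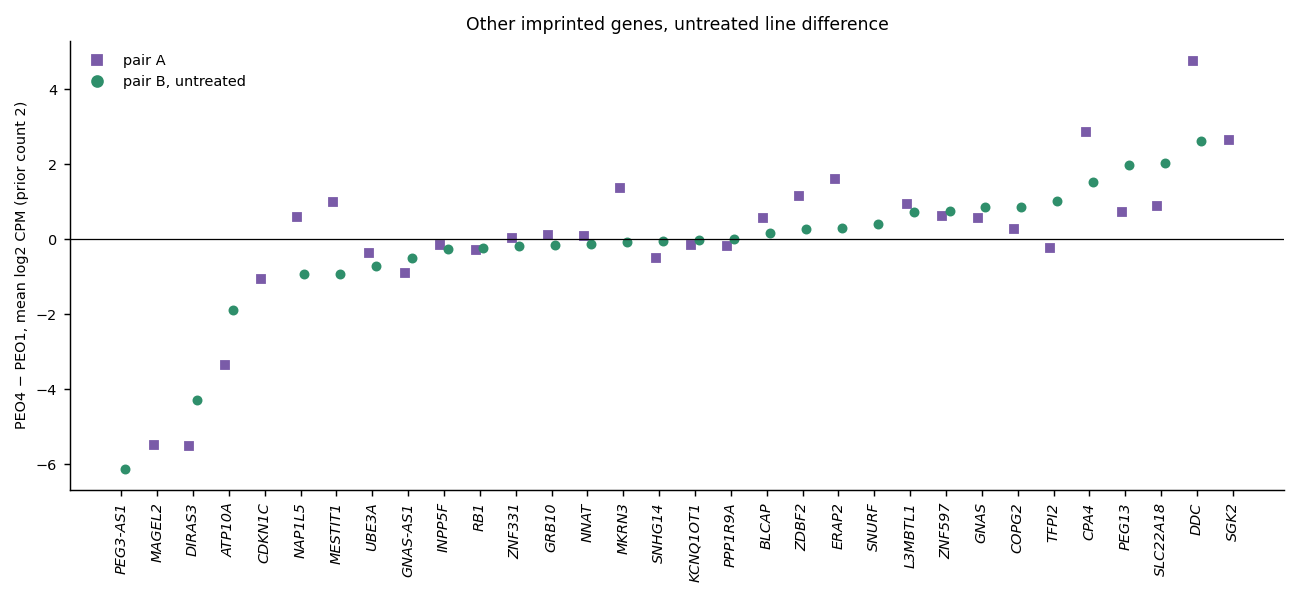
Untreated difference between PEO4 and PEO1 in mean log2 CPM (prior count 2) for the other imprinted genes that passed the low-count filter, with pair A as squares and pair B as circles, ordered by the value in pair B where there is one. PEG3-AS1, MAGEL2, DIRAS3 and ATP10A lie lowest, and CPA4, DDC and SGK2 highest in pair A. In pair B, PEG13 and SLC22A18 were called higher beside DDC and CPA4, and most genes lie within 1 of 0.

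After 6 h of PDS, 2 of the 29 were called higher in PEO1 B, TFPI2 and MKRN3, and 0 lower, while in PEO4 B 1 was called higher, TFPI2, and 4 lower, beside 1.29% and 6.83% of all genes in PEO1 B and 6.26% and 16.3% in PEO4 B. The median was -0.091 in PEO1 B and -0.036 in PEO4 B, beside -0.027 and -0.028 over all genes. TFPI2, a protease inhibitor gene next to the PEG10 cluster, rose in both lines, by 1.09 (adjusted p = 0.00125) in PEO1 B and 1.28 (adjusted p = 0.000128) in PEO4 B. The 4 that fell in PEO4 B were DDC (-4.31), SLC22A18 (-2.54), ATP10A (-1.94) and CPA4 (-1.12). In PEO1 B at 6 h, DDC stood at 0.75 (adjusted p = 0.346) and SLC22A18 at -0.76 (adjusted p = 0.00265). ATP10A stood there at -0.51 (adjusted p = 0.00305) and CPA4 at -0.99 (adjusted p = 1.19e-07), by edgeR's quasi-likelihood test. CPA4 was called lower in PEO1 B at 2 h (-1.05). DDC was higher in untreated PEO4 B than in untreated PEO1 B by a log2 of 3.17. Its fall thus started from the group where it was high, and its p-values are no independent support for it. DIRAS3 behaved differently in time: it rose in PEO4 B at 2 h, from 1.66 ± 0.783 to 8.03 ± 1.01 CPM (log2 fold change 2.30, SE 0.180, adjusted p = 1.67e-10), and stood at 2.06 ± 0.243 CPM at 6 h (adjusted p = 0.184).

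Of the 17 genes of the IGF axis (receptors, substrates, binding proteins and RNA-binding regulators of IGF2), 15 were tested. In PEO4 A against PEO1 A, 2 were called higher and 6 lower, and in untreated pair B 4 higher and 6 lower, beside the shares over all genes given above. IGFBP5 and IGFBP3, which encode binding proteins that hold IGFs in the extracellular space, were lower in PEO4 in both pairs, IGFBP5 by -8.05 and -3.50 and IGFBP3 by -2.92 and -1.76. IGFBP2 and IRS1, the latter the adaptor of the IGF1 and insulin receptors, changed sign between the pairs, IGFBP2 with 3.89 and -1.61 and IRS1 with -1.30 and 1.39. IGF1R was higher in PEO4 in pair B (1.56, adjusted p = 1.07e-12) and was not called in pair A (0.34, adjusted p = 0.0508).

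After 2 h of PDS, 2 genes of the IGF axis were called higher and 4 lower in PEO4 B, and 1 higher and 2 lower in PEO1 B, beside 6.4% and 11.0% of all genes in PEO4 B and 1.18% and 6.39% in PEO1 B. At 6 h the counts were 1 higher and 3 lower in PEO4 B and 0 higher and 1 lower in PEO1 B. The shares of all genes at 6 h were 6.26% higher and 16.3% lower in PEO4 B and 1.29% and 6.83% in PEO1 B. IRS1 fell in both lines at both times, with -1.50 and -1.22 in PEO1 B and -1.74 and -1.04 in PEO4 B. IGFBP3 fell in PEO4 B (-1.40 and -2.26) and had log2 fold changes of -0.02 and -0.07 in PEO1 B. IGFBP5 rose at 2 h in PEO4 B, from 2.26 ± 2.92 to 39.9 ± 13.0 CPM (log2 fold change 4.20, adjusted p = 9.42e-06), and was at 4.13 ± 1.02 CPM at 6 h.

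The counts for the families of the other members stand beside 25.8% of all genes called in pair A and 24.8% in untreated pair B, 7.57% and 8.13% in PEO1 B and 17.4% and 22.6% in PEO4 B at 2 h and 6 h of PDS. The shares at an adjusted p under 0.05 alone were 61.6%, 68.6%, 52.6%, 53.0%, 65.3% and 69.8% in the same order. Of 8 tested relatives of PEG10 among the retrotransposon-derived RTL genes, 2 were called in each untreated pair, RTL8C lower in PEO4 in both (-1.02 and -1.19), RTL5 higher in pair A (1.37) and RTL9 lower in pair B (-1.18). After PDS, RTL8B fell in PEO1 B at both times (-1.30 and -1.40), as PEG10 did, and had log2 fold changes of 0.54 and 0.32 in PEO4 B, where RTL9 was the 1 gene called, higher (2.48 and 1.95). Of 7 core Sm genes, whose proteins share the spliceosome with SmN, 0 were called in PEO1 B and 2 and 3 were called higher in PEO4 B at 2 h and 6 h, SNRPD2 and SNRPE at both times. Between the untreated lines, SNRPB was called, lower in PEO4 A (-1.15), and 0 in pair B (3 at an adjusted p under 0.05 alone). The median after PDS was 0.698 and 0.736 in PEO1 B and 0.792 and 0.957 in PEO4 B, and at an adjusted p under 0.05 alone all 7 were counted in PEO1 B at both times and 6 and 7 in PEO4 B. Of 15 tested genes that set or keep imprints, 0 were called in PEO4 A against PEO1 A (8 at an adjusted p under 0.05 alone) and 1 in untreated pair B, DNMT3L, higher in PEO4 B (3.18). RTL9 and DNMT3L were named after their values were seen. DNMT3L was at or under the floor of 3 counts per library in untreated PEO1 B, and its line difference had an SE of 0.838. It fell after PDS in PEO4 B (-2.24, SE 0.643, and -1.72, SE 0.606). TET1, an enzyme that oxidises methylated cytosine, fell in PEO4 B by -1.03 and -1.50 and in PEO1 B by -1.09 at 6 h. Among 3 tested genes of the sarcoglycan list (SGCB, SSPN and DAG1), SSPN (-1.39) and DAG1 (-1.195) were called lower in PEO4 B at 6 h and none in PEO1 B, by the same test. In PEO1 B, SSPN (-0.87, adjusted p = 0.000187) and DAG1 (-0.82, adjusted p = 1.65e-10) were also lower at 6 h, under the fold threshold. SGCB was not lower, at 0.78 in PEO4 B and 0.13 in PEO1 B. Of the MAGE family of NDN, 5 genes were tested in pair A, of which MAGEL2 was called, and 4 in pair B, of which 0 were called between the untreated lines (3 at an adjusted p under 0.05 alone) or after PDS in either line (2 and 3 in PEO1 B and 2 and 4 in PEO4 B at an adjusted p under 0.05 alone).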

How the data were processed

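RNA was measured in 24 libraries, 6 of pair A and 18 of pair B. The authors deposited 1 table of raw counts per gene for each pair, made, per the submitters' processing notes, with FastQC, fastp, STAR, hg38 and featureCounts. The annotation and the strand and overlap settings are not given in the sources used here. The tables hold 28277 genes each. Lines without readable counts were left out, 2 in pair A and 1 in pair B.

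Counts were fitted per table over all of its libraries with edgeR 4.0.16 in R 4.3.3 (TMM scaling, filterByExpr with a minimum count of 10, robust quasi-likelihood test), which left 15882 and 17020 genes. P-values were adjusted by Benjamini-Hochberg over every gene tested, and calls needed an adjusted p under 0.05 together with an absolute log2 fold change over 1. The steps were tested on simulated data. Alternatives were DESeq2 1.42.0, other scalings and filters, the adjusted p alone, a replicate block and each library left out. A count of 0 was given a limit of 3 counts per library, and intervals (95%) cover counting error only.

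The 10 genes and all lists (other imprinted genes, imprint maintenance, IGF axis, RTL family, sarcoglycans, Sm core, MAGE family and cell type markers) were chosen with earlier results of these data known. All 10 genes are named, and from each list up to 6 called genes, ranked by size of the log2 fold change, at a mean of at least 1 CPM. Neighbours (within 500 kb) are named where called in both untreated pairs in the same direction, and genes like PEG3 are the 5 with the highest Pearson correlation. Sequences are from RefSeq (GRCh38.p14).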

Additional observations from a re-analysis of the deposited data

Results flagged for a closer look

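The following genes responded differently to PDS in PEO4 B and PEO1 B by the interaction term of edgeR's quasi-likelihood test, with values given as the response of PEO4 B minus that of PEO1 B on the log2 scale. Among the listed genes, the response at 2 h differed for PEG10 (0.89, SE 0.164, adjusted p = 0.00047), SGCE (0.62, SE 0.104, adjusted p = 4.24e-05), IGF2 (-3.23, SE 1.23, adjusted p = 0.0414), MEST (-0.40, SE 0.0799, adjusted p = 0.000344), NDN (-1.03, SE 0.157, adjusted p = 1.24e-05) and SNRPN (0.47, SE 0.113, adjusted p = 0.00201). Among the listed genes, the response at 6 h differed for PEG10 (1.50, SE 0.165, adjusted p = 2.07e-06), SGCE (0.27, SE 0.105, adjusted p = 0.0407), MEST (-0.53, SE 0.0799, adjusted p = 7.08e-06), NDN (-0.86, SE 0.155, adjusted p = 6.57e-05) and SNRPN (0.43, SE 0.114, adjusted p = 0.0034). A value under 1 in size did not pass the fold threshold. The 2 h calls of IGF2 and NDN were lost when certain single libraries were left out, as given above. IGF2 had next to no counts in PEO1 B, too few for a response there to be detectable. It passed the low-count filter only through untreated PEO4 B.

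Among the other named genes, the response at 2 h differed for ATP10A (-1.81, SE 0.188, adjusted p = 2.5e-06), DDC (-3.50, SE 0.764, adjusted p = 0.000788), DIRAS3 (2.13, SE 0.214, adjusted p = 6.21e-08), IGF2BP3 (1.18, SE 0.168, adjusted p = 5.19e-06), IGFBP1 (-2.07, SE 0.423, adjusted p = 0.00041), IGFBP3 (-1.38, SE 0.131, adjusted p = 7.84e-08), IGFBP4 (-1.52, SE 0.11, adjusted p = 1.45e-10), IGFBP5 (5.22, SE 0.659, adjusted p = 4.33e-05), PEG13 (1.16, SE 0.355, adjusted p = 0.012) and RTL8B (1.84, SE 0.207, adjusted p = 1.68e-07). Among the other named genes, the response at 6 h differed for ATP10A (-1.43, SE 0.187, adjusted p = 1.77e-05), DDC (-5.06, SE 0.866, adjusted p = 3.68e-05), IGFBP1 (-1.05, SE 0.423, adjusted p = 0.043), IGFBP3 (-2.19, SE 0.133, adjusted p = 9.36e-11), IGFBP4 (-1.80, SE 0.11, adjusted p = 7.21e-12), RTL8B (1.72, SE 0.209, adjusted p = 3.65e-07) and SLC22A18 (-1.78, SE 0.266, adjusted p = 6.77e-06). DDC was higher in untreated PEO4 B than in untreated PEO1 B by a log2 of 3.17. Its interaction thus rests on a fall from the group where it was high, and the p-values are no independent support for it. Groups of 3 libraries were too small for a search for single libraries that stand apart.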

How the results depend on the processing

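Of the counts of called genes and the single values recomputed, 284 and 1212 kept their direction and side of the threshold. With the adjusted p alone, the listed genes counted rose to 5 and 6 in PEO1 B at 2 h and 6 h, 5 in PEO4 B at 2 h, 3 between 2 h and 6 h in PEO4 B, and 6 and 5 in the interaction at 2 h and 6 h, and the other imprinted genes to 21 in pair A, 21 in untreated pair B, 15 in PEO1 B and 15 in PEO4 B at 6 h. Without a low-count filter the count in PEO1 B at 2 h was 0, and with a minimum mean of 1 CPM the interaction at 2 h gave 1 and the other imprinted genes of pair A 6. Leaving out 1 library at a time gave 0 to 1 in PEO1 B at 2 h, 1 to 1 at 6 h, 3 to 3 in PEO4 B at both times, 0 to 0 between 2 h and 6 h in either line, 0 to 3 and 1 to 1 in the interaction, and for the other imprinted genes 8 to 11 in pair A, 9 to 11 in untreated pair B, 1 to 3 in PEO1 B (1 without untreated replicate 2) and 5 to 6 in PEO4 B at 6 h. Direction turned in values that were not called: SNRPN in pair A (-0.0359 to 0.6305 with 1 library left out, lowest without PEO4 A replicate 1), SNRPN in PEO1 B at 2 h (-0.0556 with library totals) and at 6 h (-0.1453 to 0.0067, highest without 6 h replicate 3), PEG10 in PEO4 B at 2 h (-0.2674 to 0.077, highest without untreated replicate 2) and at 6 h (-0.0162 with library totals), and the IGF2 interaction at 6 h (-3.898 to 0.6943, highest without PEO1 B 6 h replicate 1). The IGF2 difference between untreated lines of pair B was 5.83 without PEO1 B replicate 3, which held 4 of the 5 PEO1 B counts. The cause was not tested. Replicate numbers did not pair the libraries (48 correlations of deviations, -0.158 to 0.134, 1 over 0.1). With a replicate block the listed genes called were 1 and 1 in PEO1 B, 3 and 3 in PEO4 B and 2 and 1 in the interaction at 2 h and 6 h, and the other imprinted genes 9, 9, 2 and 5 in pair A, untreated pair B, and PEO1 B and PEO4 B at 6 h. H19 and MEG3 in both lines and IGF2 in PEO1 had too few counts for a change to be read.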
